A study of Mus musculus with 4 samples.

Results

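The genes described here belong to the circuits by which cells sense amino acids: the kinase complex mTORC1 with its upstream sestrins and its translation targets, and the transcription factor ATF4 with its target genes. The 10 members were chosen by gene symbol (Mtor, Rptor, Rps6kb1, Eif4ebp1, Sesn1, Sesn2, Atf4, Ddit3, Trib3 and Asns), and for each the probe set whose log2 signal averaged highest over the 4 arrays was taken. Of these, 9 had a probe set among the 18194 genes of the table, and Rps6kb1, the S6 kinase gene, is not analysed here because no probe set was paired with it.

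RNA came from epididymal fat pads, a visceral depot, of mice of the C57Bl/6J strain. All mice had eaten a high-fat diet with 60% of its energy as fat for 21 weeks, beginning at 9 weeks of age. On the high-calcium whey diet, calcium was 1.8% and whey protein isolate was supplied, and 2 arrays carry this label. The standard high-fat diet held 0.4% calcium, and 1 array carries this label. The labels speak of 2 profiled mice per diet out of 10 per diet, and the diet of the remaining array is open, since its title repeats the series title and names no diet. It is shown as values and entered no test. Calcium and whey protein were given together, so their parts cannot be told apart.

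In mammalian cells mTORC1 promotes protein synthesis when amino acids, leucine in particular, and growth factors are plentiful. It phosphorylates 4E-BP1, the product of Eif4ebp1, and S6 kinase, while sestrins hold the complex back when leucine is scarce. When amino acids run short or the endoplasmic reticulum is stressed, phosphorylation of eIF2 lowers general translation and raises that of ATF4, which switches on genes for amino acid synthesis, uptake and tRNA charging. Whey protein is rich in leucine and other branched-chain amino acids. The arrays measure mRNA only, and the phosphorylation by which mTORC1 activity is usually read was not measured.

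Background was set at the median signal of each array over all probe sets. All 9 measured members were above background on all 4 arrays, as were 10463 genes in all. Adipocyte identity was clear, with 7 of 7 measured adipocyte markers above background on every array and a summed linear signal of 173 and 158 on the high-calcium arrays, 152 on the standard array and 144 on the array of open diet. High-calcium replicate 1 stood apart in other tissue. Its 6 smooth muscle markers summed to 49.9, against 8.08 on high-calcium replicate 2, 8.74 on the standard array and 6.47 on the array of open diet, and its 4 epididymis markers summed to 9.69, against 0.0829, 0.152 and 0.0419 on those arrays. Defb42 alone gave 9.55 of the 9.69, and the other 3 epididymis markers were under background on every array. Its 8 macrophage markers summed to 35.7, against 57.5, 54.0 and 57.2 on those arrays, with all 8 above background on each array. Sperm genes (4 markers) summed to 2.26 on high-calcium replicate 1 and 0.312 on replicate 2, against 1.84 on the standard array, and to 0.145 on the array of open diet. No marker sat at the lowest value of an array. In bulk tissue, fewer cells of a type and less RNA per cell cannot be told apart.

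**Figure D1:**
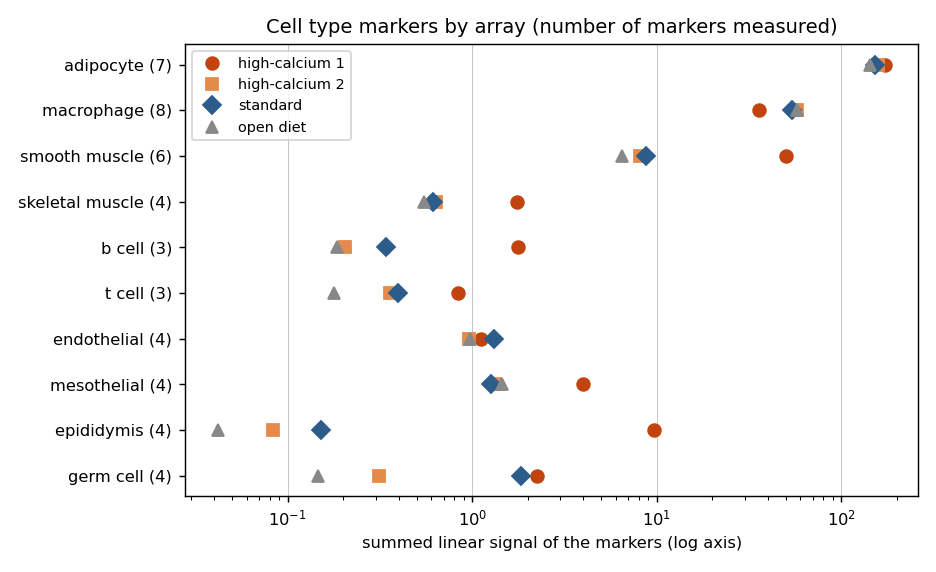
Summed linear signal (horizontal log axis) of the measured markers of each cell type, 1 symbol per array. High-calcium replicate 1 lies to the right for smooth muscle (49.9), B-cell (1.77) and epididymis (9.69) markers and to the left for macrophage markers (35.7), while the adipocyte sums lie between 144 and 173.

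No member passed the test between the diets. With limma's moderated test on the 2 high-calcium arrays and the standard array, 0 of 9 members had an adjusted p under 0.05, where 0% of all 18194 genes did, and 0 of 9 had an unadjusted p under 0.05, where 4.94% of all genes and 0.182% of genes above background did. With 1 array on the standard diet, its spread was taken to be that of the high-calcium pair, and a difference between the diets cannot be told apart from a difference of that 1 mouse from the others. On the deposited scale 4 members lay higher on both high-calcium arrays than on the standard array (Rptor, Eif4ebp1, Sesn2 and Atf4), where 35.4% of genes above background did, and 2 lay lower on both (Trib3 and Asns), where 27.1% did. In the other 3 (Mtor, Sesn1 and Ddit3) the standard array lay inside the range of the high-calcium pair. It lay outside that range for 6 of 9 members and for 62.5% of genes above background. The median log2 difference of the 9 members was -0.0055, against 0.08 over all genes and 0.03 over genes above background. In 4 members the gap between the high-calcium arrays was larger than the difference from the standard array. The share of all genes with a larger gap was not counted. The median gap was 0.17 in the members and 0.25 over genes above background. The median absolute difference was 0.25 in the members and 0.18 over genes above background. At least 1.5-fold apart on both arrays in the same direction were 0 members in either direction, where 2.11% of genes above background were higher and 1.12% lower by that rule. At a log2 difference of 0.32 or more on both arrays 2 members were higher (Eif4ebp1 and Sesn2), where 7.55% of genes above background were, and 1 was lower (Trib3), where 4.05% were.

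The scale of high-calcium replicate 1 bears on these directions. Its median over all probe sets was 0.0963 on the deposited linear scale, against 0.0628 on the other high-calcium array, 0.0624 on the standard array and 0.0585 on the array of open diet. Centring arrays on these medians lowered every difference of replicate 1 by 0.62 on the log2 scale and moved the median of all genes by -0.32, to -0.24. Over genes above background the median difference from the standard array was 0.06 on replicate 1 and 0.0053 on replicate 2. Differences are therefore also given relative to the median of all genes, a distance that centring cannot change because it shifts all genes of an array alike. The members' median lay at -0.085 from it. All measured members are above background, and Mtor, the member at the median, lay at -0.036 from the median of genes above background.

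**Figure D2:**
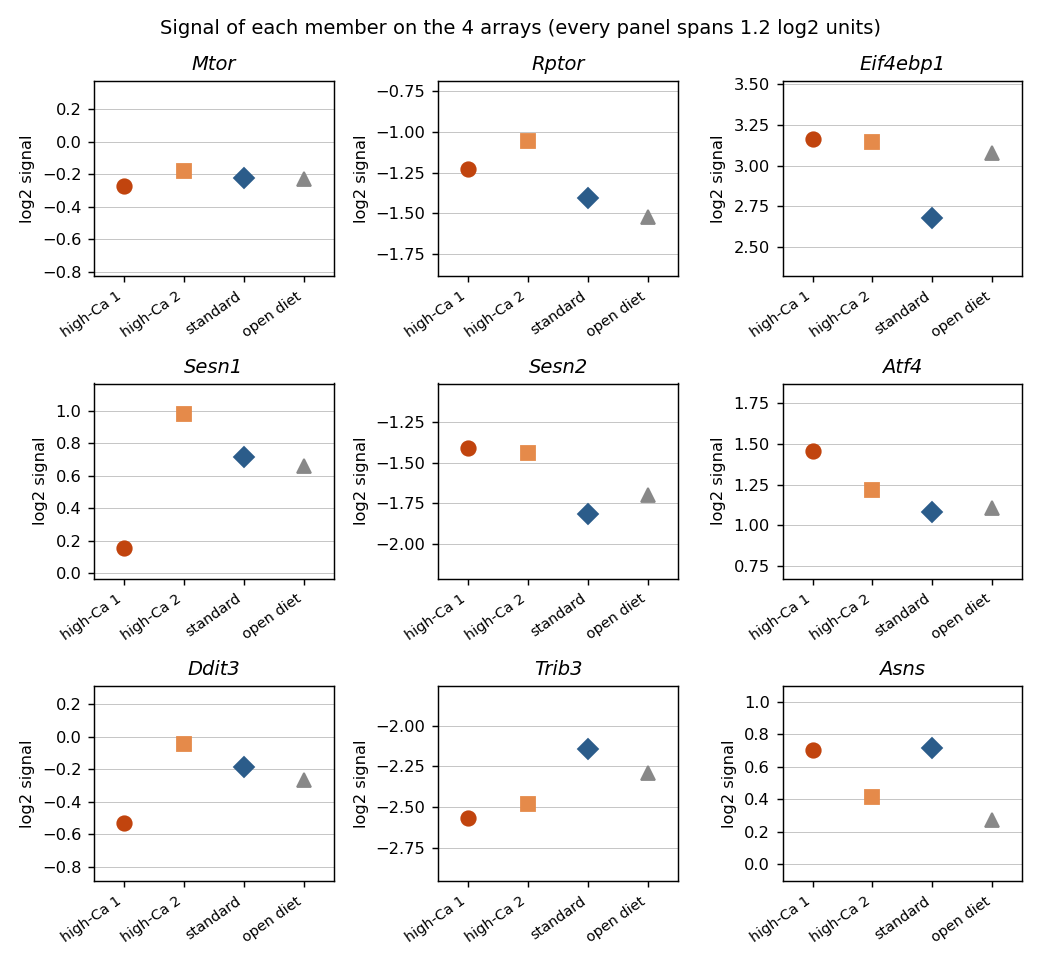
Log2 signal (vertical axis, each panel spanning an equal width) of the 9 measured members on both high-calcium arrays, the standard array and the array of open diet. Eif4ebp1 and Sesn2 show the high-calcium arrays close together above the standard array, and Sesn1 and Ddit3 show them on either side of it.

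Mtor encodes the kinase of the complex. It had log2 signals of -0.27 and -0.18 on the high-calcium arrays, against -0.22 on the standard array, and -0.23 on the array of open diet. The standard array thus lay inside the range of the high-calcium pair, and the difference of -0.0055 had a 95% interval from -1.20 to 1.19 (adjusted p = 0.9999, limma). A further Mtor probe set, 1436267_a_at, did not follow. It read -3.23 and -3.03 on the high-calcium arrays, against -2.30 on the standard array, and -2.43 on the array of open diet. This probe set lay near background on high-calcium replicate 1, where background stood at -3.38. Differences of -0.93 and -0.73 made it the one probe set above background of any member that was at least 1.5-fold lower on both arrays (adjusted p = 0.9999, limma over every probe set), and the 2 Mtor probe sets disagree. The remaining Mtor probe set was under background on every array.

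Rptor encodes raptor, the scaffold that brings substrates to the kinase. Its log2 signals were -1.22 and -1.05 on the high-calcium arrays, against -1.41 on the standard array, and -1.52 on the array of open diet. Both high-calcium arrays were thus higher, by 0.18 and 0.35, but with arrays centred on their medians replicate 1 lay 0.44 below the standard array (a log2 difference of -0.44) and the mean difference of 0.27 became -0.048. With quantile normalization the differences were 0.08 and 0.37, and with arrays centred on genes above background 0.11 and 0.36. The other 2 Rptor probe sets were under background throughout.

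Eif4ebp1 encodes 4E-BP1, which binds the cap-binding factor eIF4E and blocks translation until mTORC1 phosphorylates it. Its log2 signals were 3.16 and 3.15 on the high-calcium arrays, against 2.68 on the standard array, and 3.08 on the array of open diet. The high-calcium pair averaged 3.15 ± 0.011 (SD, n = 2) and lay 1.39-fold above the standard array, a log2 difference of 0.47 (SE 0.32, 95% interval from -0.71 to 1.65, adjusted p = 0.9999, limma). All 3 probe sets of the gene were above background and placed both high-calcium arrays higher, and the representative carries the _x suffix, which marks probes that can match other transcripts. On 1417562_at the differences were 0.49 and 0.46, on 1417563_at 0.48 and 0.36, and on the representative 1434976_x_at 0.48 and 0.47, with the array of open diet 0.23, 0.17 and 0.40 above the standard array on these probe sets in turn.

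In absolute size the Eif4ebp1 difference exceeded that of 85.7% of genes above background. When limma was run with a trend of variance on signal and robust estimation, it gave Eif4ebp1 an unadjusted p of 0.00632, the only one under 0.05 among the members, where 2.42% of genes above background had one. By that fit 0.033% of all genes passed the adjusted threshold, 0 of them members, and the adjusted p of Eif4ebp1 was 0.9998. Centring arrays on their medians turned the sign on replicate 1 (-0.14) and not on replicate 2 (0.46), with a mean difference of 0.16. With quantile normalization the differences of Eif4ebp1 were 0.49 and 0.47. With arrays centred on genes above background they were 0.40 and 0.47. Relative to the median of all genes Eif4ebp1 was 0.39 higher, and relative to that of genes above background 0.44 higher.

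Sesn2 and Sesn1 encode sestrins, stress-induced proteins that bind leucine and restrain mTORC1 through the GATOR complexes. Sesn2, itself an ATF4 and p53 target, had log2 signals of -1.41 and -1.44 on the high-calcium arrays, against -1.82 on the standard array, and -1.70 on the array of open diet. The high-calcium pair averaged -1.42 ± 0.023 (SD, n = 2) and lay 0.41 and 0.38 above the standard array (mean 0.39, SE 0.32, adjusted p = 0.9999, limma). The other Sesn2 probe set, 1425139_at, read -2.64 and -2.54 on the high-calcium arrays, against -3.27 on the standard array, and -2.67 on the array of open diet. With differences of 0.63 and 0.73 it was the one probe set above background of any member at least 1.5-fold higher on both arrays. After centring on array medians Sesn2 lay at -0.22 on replicate 1 and at 0.37 on replicate 2, a mean of 0.076. With quantile normalization it lay at 0.28 and 0.39, and with arrays centred on genes above background at 0.33 and 0.38. Relative to the median of all genes Sesn2 was 0.31 higher, and relative to that of genes above background 0.36 higher.

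Sesn1, a p53 target, had the widest range of the members over the 4 arrays. Its log2 signals were 0.16 and 0.98 on the high-calcium arrays, against 0.71 on the standard array, and 0.66 on the array of open diet. Replicate 1 was thus the lowest array and replicate 2 the highest. The mean difference was -0.15 (SE 0.56), and without replicate 1 it was 0.26. Replicate 1 was the lowest array on both further probe sets above background as well. These read -0.02 and 0.48 on the high-calcium arrays, against 0.84 on the standard array (1438931_s_at), and -0.46 and 0.35 on the high-calcium arrays, against 0.33 on the standard array (1454699_at). Replicate 1 is also the array with the lower macrophage sum (35.7) and the higher smooth muscle sum (49.9), and the part of these in the Sesn1 value was not tested. Among 10207 genes above background, those nearest to Sesn1 by Euclidean distance of centred log2 values over 4 arrays were Tgfbr1 (0.0520), Trmt1l (0.0544) and P2rx4 (0.0590).

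**Figure D3:**
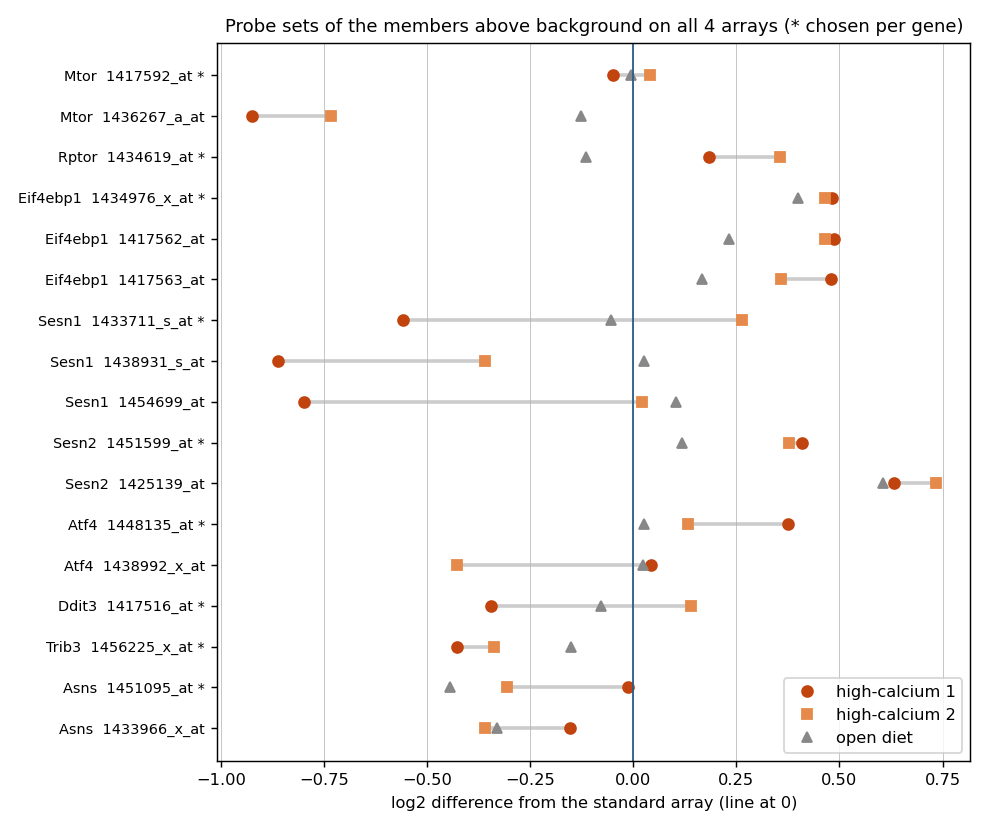
Log2 difference from the standard array (horizontal axis, line at 0) of the 17 probe sets of the members that were above background on all 4 arrays, for both high-calcium arrays and the array of open diet. The 3 Eif4ebp1 and 2 Sesn2 probe sets lie right of the line on all 3 arrays, whereas the Mtor, Atf4 and Sesn1 probe sets disagree among themselves.

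Of all 24 probe sets of the members, 17 were above background on every array, 2 on some arrays and 5 on none. Among the 17, 7 were higher on both high-calcium arrays, 5 were lower on both and 5 were split. By gene, 35.4% of those above background were higher on both and 27.1% lower, and shares over all probe sets were not computed. The 7 include 3 probe sets of Eif4ebp1 and 2 of Sesn2, which are repeat readings of the same gene. Probe sets under background gave the largest differences and are not read as levels. One of Ddit3 (1443897_at) lay 3.71 and 3.49 above the standard array on the high-calcium arrays, with every array under background.

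Atf4 encodes the transcription factor itself, which is controlled largely at translation, so its mRNA is a partial readout. Its log2 signals were 1.46 and 1.22 on the high-calcium arrays, against 1.08 on the standard array, and 1.11 on the array of open diet. Both high-calcium arrays were higher, by 0.38 and 0.13, and the mean difference of 0.25 turned to -0.063 with arrays centred on their medians. With quantile normalization the differences were 0.42 and 0.13, and with arrays centred on genes above background 0.30 and 0.14. Another probe set above background, 1438992_x_at, went the other way on replicate 2, at 0.04 and -0.43.

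Ddit3 encodes CHOP, a partner and target of ATF4 that rises with prolonged stress of the endoplasmic reticulum. It read -0.53 and -0.05 on the high-calcium arrays, against -0.19 on the standard array, and -0.26 on the array of open diet. The high-calcium pair lay on either side of the standard array, 0.49 apart, and the mean difference was -0.10 (SE 0.42, adjusted p = 0.9999, limma). Without replicate 1 it was 0.14.

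Trib3, a pseudokinase induced by ATF4 and CHOP, and Asns, asparagine synthetase, are textbook ATF4 targets. Their promoters are printed because, of the 9 members with a start-site window, only these hold the ATF4 binding element. RefSeq windows running from 250 bases before to 50 bases after the annotated start were searched on both strands for TGATGNAA, the core of the C/EBP-ATF response element. The windows are those of build GRCm38.p6 and read along the gene's strand, with the match in capitals.
Asns (chr6:7693160-7693459, minus strand): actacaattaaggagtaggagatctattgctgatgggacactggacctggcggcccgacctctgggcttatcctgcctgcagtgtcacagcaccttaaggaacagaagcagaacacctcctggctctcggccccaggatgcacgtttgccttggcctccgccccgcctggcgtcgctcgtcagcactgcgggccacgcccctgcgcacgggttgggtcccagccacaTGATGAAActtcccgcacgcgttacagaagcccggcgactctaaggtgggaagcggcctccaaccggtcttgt
Trib3 (chr2:152344011-152344310, minus strand): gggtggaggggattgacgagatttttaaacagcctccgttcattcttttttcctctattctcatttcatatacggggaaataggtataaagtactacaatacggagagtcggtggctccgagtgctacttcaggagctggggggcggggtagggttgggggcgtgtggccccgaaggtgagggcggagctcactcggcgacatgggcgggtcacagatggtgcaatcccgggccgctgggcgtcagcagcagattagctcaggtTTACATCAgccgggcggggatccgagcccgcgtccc
In Asns the match stood on the coding strand and began 23 bases before the start, and in Trib3 it stood on the opposite strand, 14 bases after the start.

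The element was found in 2 of 10 windows of the members (20%), where 3.97% of all 32851 windows held it. Windows of Mtor, Rptor, Rps6kb1, Sesn1, Sesn2, Ddit3 and Atf4 held none, and these letters can lie outside so short a window. Eif4ebp1 had no window and was not searched. Among ATF4 target lists it stood in 5 of 9 windows of tRNA synthetases and Xpot (Aars, Gars, Iars, Tars and Yars), in 6 of 15 of stress targets and partners, in 3 of 13 of amino acid synthesis genes and in 2 of 9 of transporters. Synthetases outside the ATF4 list held it in 0 of 5 windows and chaperones of the endoplasmic reticulum in 0 of 13. The plain cyclic AMP response element TGACGTCA, present in 1.79% of all windows, stood in 0 of 10 windows of the members. The letters describe the sequence, not whether ATF4 was bound.

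Trib3 had log2 signals of -2.57 and -2.48 on the high-calcium arrays, against -2.14 on the standard array, and -2.29 on the array of open diet. Both high-calcium arrays were lower, by 0.43 and 0.34 (log2 differences of -0.43 and -0.34, mean -0.38, SE 0.32, adjusted p = 0.9999, limma), and stayed lower with arrays centred on their medians. Its representative probe set carries the _x suffix too. The other, 1426065_a_at, was under background on high-calcium replicate 1 and read -3.59 and -2.78 on the high-calcium arrays, against -2.97 on the standard array, so it did not repeat the direction on replicate 2.

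Asns had log2 signals of 0.70 and 0.41 on the high-calcium arrays, against 0.72 on the standard array, and 0.28 on the array of open diet. Replicate 1 differed from the standard array by only -0.01 and replicate 2 by -0.31, less in each case than the array of open diet (-0.44), and the mean was -0.16 (SE 0.36, adjusted p = 0.9999, limma). The second Asns probe set gave -0.15 and -0.36, with -0.33 on the array of open diet. On the deposited scale the level of Atf4 lay above the standard array and those of Trib3 and Asns below it. Other ATF4 targets did not all share that side, since Sesn2 lay higher on both high-calcium arrays (0.41 and 0.38) and Ddit3 was split. The second Atf4 probe set above background was split as well (0.04 and -0.43). After centring on array medians the means of Atf4, Trib3 and Asns all lay below (-0.063, -0.70 and -0.48).

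**Figure D4:**
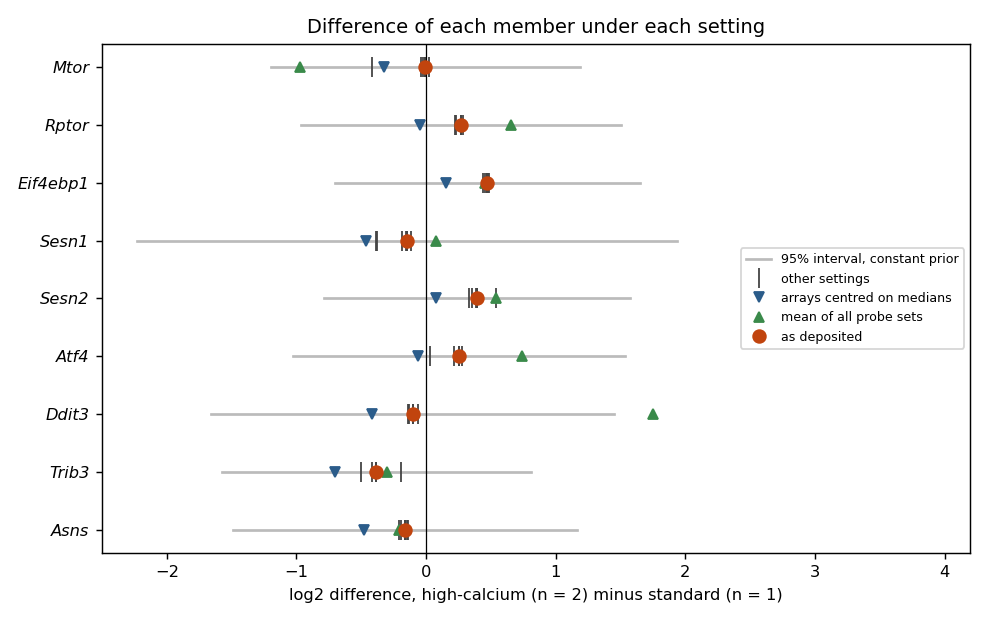
Log2 difference, high-calcium (n = 2) minus standard (n = 1), on the horizontal axis for each member, with the 95% interval of limma's constant prior and the value under each other setting. Every interval includes 0, Eif4ebp1 and Sesn2 stay right of 0 and Trib3 and Asns left of 0 in every setting, and the mean of all probe sets moves Ddit3 to 1.75.

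The wider pathway was read from 14 lists of 154 genes, of which 146 were measured and 137 were above background on all 4 arrays. In limma's test 0 of the 146 passed the adjusted threshold, 0 had an unadjusted p under 0.05, and 0 passed with a trend and robust estimation. Of the 137 genes, 51 were higher on both high-calcium arrays, where 35.4% of all genes above background were, 39 were lower on both, where 27.1% were, and 47 were split. By the 1.5-fold rule 1 was higher and 2 were lower, where 2.11% and 1.12% of all genes above background were. The same shares are the background for the count of each list. In the sentences that follow, a pair of values in brackets gives the log2 differences of high-calcium replicates 1 and 2 from the standard array, and none of these genes passed the test.

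Upstream of the kinase, growth factor and stress signals reach mTORC1 through the TSC complex. Ddit4 and Ddit4l encode REDD proteins, which restrain mTORC1 through the TSC complex. Ddit4l had log2 signals of -2.43 and -3.22 on the high-calcium arrays, against -1.44 on the standard array, and -3.42 on the array of open diet. Ddit4, an ATF4 and glucocorticoid target, had -0.13 and 0.25 on the high-calcium arrays, against 0.83 on the standard array, and -0.90 on the array of open diet. In both genes the standard array was the highest of the 4, and the array of open diet the lowest. Their differences averaged -1.39 (SE 0.55) for Ddit4l and -0.77 (SE 0.39) for Ddit4. Rheb, the small GTPase that activates mTORC1, was lower on both arrays (-0.39 and -0.30), whereas Tsc1, Tsc2 and Tbc1d7, the subunits of the complex, named after their values were seen, were higher on both by at most 0.36. Of the 6 genes of the list 3 were thus higher and 3 lower on both arrays, with a median of -0.13. With arrays centred on their medians the 3 lower genes remain lower, and the 3 higher ones lie below the standard array on replicate 1.

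Among sensors and the Rag machinery that place mTORC1 on the lysosome, the GATOR, KICSTOR and sensor list had 7 of 14 genes above background higher on both arrays and 3 lower, with a median of 0.14. Depdc5, of GATOR1, is outside that count because it was under background on the standard array. It lay at 1.53 and 1.14 and is named after its values were seen. Castor2, of the arginine sensor family, lay at 0.57 and 0.65, Wdr59 of GATOR2 at 0.56 and 0.71, and Itfg2 of KICSTOR at 0.95 and 0.49. Itfg2 read -3.57 on the standard array, where background stood at -4.00. The Rag, Ragulator and folliculin list had 3 of 11 higher and 5 lower, with a median of -0.12. Lamtor1, which anchors Ragulator to the lysosome, lay at -0.42 and -0.31, and Flcn, folliculin, at -0.56 and -0.33. Slc38a9, an arginine sensor of the lysosome, lay at 0.70 and 0.19.

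Of the other subunits and chaperones of the complex, 3 of 6 were higher on both arrays and 2 lower (median 0.13). Tti2, a chaperone cofactor for kinases of this family, lay at 1.09 and 0.76. It was the one gene of the 137 above background past 1.5-fold higher on both arrays. Its log2 signal was only -3.16 on the standard array, where background stood at -4.00. With arrays centred on their medians replicate 1 shifts by -0.62, which takes Tti2 under that rule. Mlst8, a core subunit, was carried by replicate 1, at 1.55 against 0.21 on replicate 2, and its signal on the standard array was -3.19. Tti1, the partner of Tti2, lay on the other side (-0.15 and -0.52). Substrates and effectors of mTORC1 stayed close to the standard array, with 2 of 14 higher on both, 5 lower and a median of 0.06. Among those on the same side of the standard array on both high-calcium arrays, the largest mean differences were those of Eef2k, the kinase of elongation factor 2 (-0.09 and -0.50), Pdcd4, a translation inhibitor (-0.33 and -0.07), and Maf1, a repressor of RNA polymerase III (0.12 and 0.21). In mTORC2, the sister complex that phosphorylates AKT and SGK1, 2 of 5 were higher and 1 lower (median 0.13), with Prr5l at 1.11 and 0.22, Rictor at 0.53 and 0.17 and the effector kinase Sgk1 at -0.60 and -0.20. The signal of Prr5l on the standard array was -2.86.

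**Figure D5:**
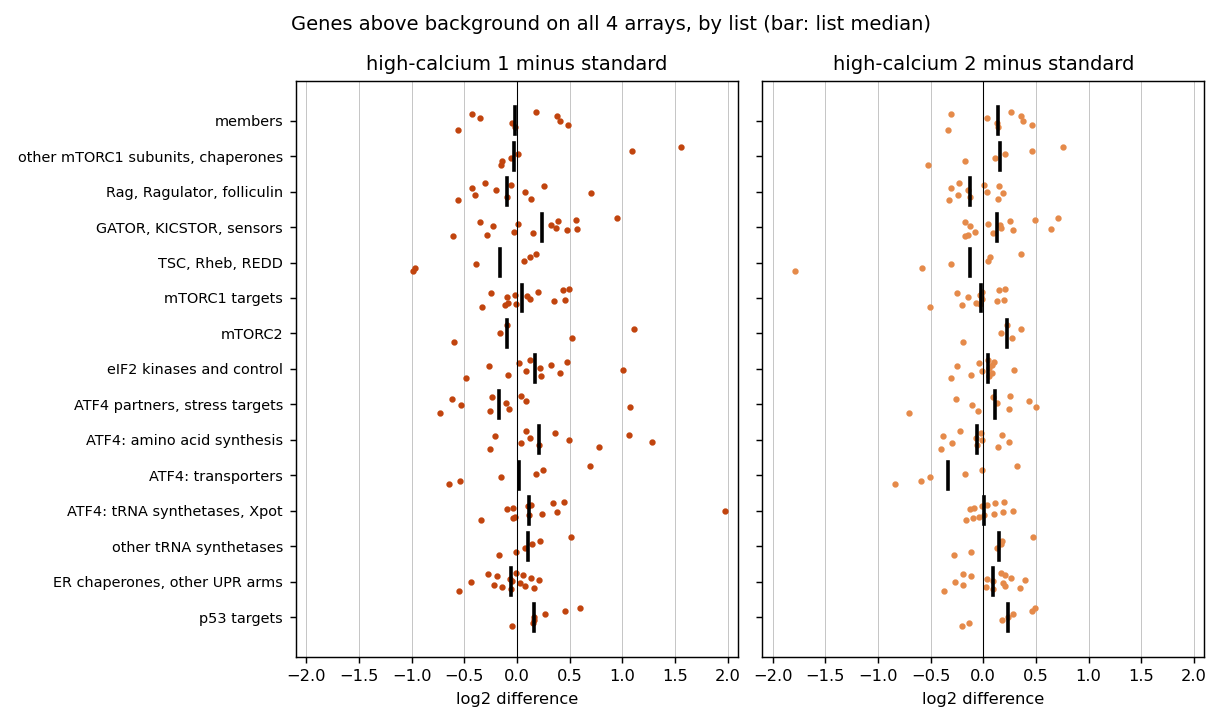
Log2 difference from the standard array (horizontal axis) of genes above background, 1 point per gene, for high-calcium replicate 1 (left panel) and replicate 2 (right panel), with a bar at each list's median. List medians lie between -0.34 and 0.24 on both panels, and Ddit4l is the leftmost point of the right panel (-1.78).

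On the ATF4 side, the kinases and exchange factors around eIF2 had 7 of 12 genes higher on both arrays and 3 lower, with a median of 0.10. Eif2ak4 encodes GCN2, the kinase that senses uncharged tRNA, and lay at -0.48 and -0.30. Impact, an inhibitor of GCN2, lay at -0.26 and -0.25. Ppp1r15a, the stress-induced eIF2 phosphatase subunit GADD34, lay at 1.01 and 0.29. ATF4 partners and stress targets were mixed, with 2 of 10 higher on both, 3 lower and a median of -0.09. Vldlr, a lipoprotein receptor, was lower on both (-0.53 and -0.70), and Chac1, which degrades glutathione, was too (-0.62 and -0.10), while Stc2, a stanniocalcin, was higher (1.07 and 0.26). Stc2 read -3.27 on the standard array, where background stood at -4.00. Vldlr and Chac1 also hold the C/EBP-ATF element in a promoter window, as do Atf3, Fgf21, Herpud1 and Nupr1 of this list. Of these, Atf3 (-0.73 and 0.44) and Herpud1 (0.04 and -0.26) were split. Nupr1 was lower on both (-0.25 and -0.05), and Fgf21 was not above background on all arrays.

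The amino acid synthesis list includes the serine pathway. Phgdh, the first enzyme of the route, lay at 0.37 and 0.25 and Psat1, the next, at 0.21 and 0.17, with the array of open diet 0.20 and 0.26 above the standard array. Gpt2, a mitochondrial alanine transaminase, lay lower (-0.21 and -0.38). In the list as a whole 3 of 11 were higher on both, 2 lower and 6 split, with a median of 0.14. Among transporters 1 of 6 was higher on both and 3 lower, with a median of -0.18. Slc6a9, a glycine transporter, lay at -0.64 and -0.83, below the standard array by over 1.5-fold on both arrays, and Slc1a4, a transporter of alanine and serine, at -0.54 and -0.51. The array of open diet was lower than the standard array for both as well (-0.93 and -0.71). Slc1a5, a glutamine transporter, lay at 0.25 and 0.32.

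Many cytosolic tRNA synthetases, which charge tRNA with amino acids, are ATF4 targets. Those on the ATF4 list had a median of 0.08, with 5 of 13 higher on both arrays and 3 lower. Yars lay at 0.38 and 0.28 and Tars at 0.24 and 0.19, and the tRNA exporter Xpot at -0.34 and -0.04. Synthetases outside that list had 4 of 6 higher on both and 2 lower, with a median of 0.14, led by Farsa at 0.51 and 0.47. The list medians are over genes above background, where the median was 0.03, against 0.08 over all genes. Chaperones and other arms of the endoplasmic reticulum stress response had 5 of 16 higher on both, 4 lower and a median of 0.01. Dnajb9, a cochaperone, lay at -0.43 and -0.38, Canx, calnexin, at -0.27 and -0.19, and Calr, calreticulin, at 0.16 and 0.34.

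Because both sestrins are p53 targets, 7 other p53 targets were read beside them. Of these 4 were higher on both arrays and 0 lower, where 35.4% and 27.1% of all genes above background were, and their median was 0.22. Ccng1, cyclin G1, had log2 signals of 3.36 and 3.40 on the high-calcium arrays, against 2.91 on the standard array, and 3.61 on the array of open diet. Cdkn1a, the cell cycle inhibitor p21, lay at 0.27 and 0.46 and Zmat3 at 0.60 and 0.24. As with Sesn2, the standard array was the lowest of the 4 for all 3 genes, and none passed limma's test (adjusted p = 0.9999 for Ccng1). The rule that named these genes asks for both high-calcium arrays on one side, so this order was partly fixed by the choice. Mdm2, Trp53inp1, Btg2 and Sesn1 were split, and Bbc3 was lowest on the array of open diet. With arrays centred on their medians replicate 1 shifts by -0.62, which places it below the standard array for Ccng1, Cdkn1a and Zmat3, while replicate 2 stays above.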

How the data were processed

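Total RNA was measured on 4 Affymetrix mouse arrays. The deposited values are linear intensities for 45101 probe sets. The submitters' processing notes name RMA with no version, yet the deposited intensities are linear, and their scaling was not stated. On each array 11 to 75 probe sets share the lowest value. Intensities were log2 transformed with nothing added. Of the probe sets 34958 had 1 gene symbol in the platform annotation, 932 several and 9211 none, and 34754 matched a current gene record, with 0 symbols changed.

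Differences were fitted with lmFit and eBayes of limma 3.58.1 (R 4.3.3) over all 18194 genes, two-sided, with Benjamini-Hochberg adjustment, a threshold of 0.05, 1 residual degree of freedom and 2.38 in all. Per the labels, RNA came from 2 mice per diet. The p-values rest on the spread between the 2 high-calcium arrays, which limma draws towards a spread estimated over all genes. No spread of the standard diet enters them. Thus the SE of Eif4ebp1 was 0.32, though its high-calcium pair had an SD of 0.011. The procedure was tested on simulated data in which the standard array had the spread of the high-calcium arrays, which 1 standard array cannot check. The members and lists were chosen with earlier results of these data known. Named were all members and, of each list, the 3 genes above background with the largest mean difference among those on the same side on both high-calcium arrays. For the member with the widest range over the arrays, the 3 genes nearest in profile were named. Promoter windows came from RefSeq (GRCm38.p6) and 9 members had one. The alternatives covered the probe set per gene, the normalization, the filter, the prior, the threshold and each high-calcium array left out. Figures used matplotlib 3.10.9. The number of arrays limits the precision.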

Additional observations from a re-analysis of the deposited data

Results flagged for a closer look

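Among the 137 genes of the pathway lists above background on all 4 arrays, 3 lay at least 1.5-fold higher on the array of open diet, which entered no comparison, than on the standard array (2.19%, against 2.07% of all 10463 genes above background). Prr5l, an mTORC2-associated gene, was 0.83 higher on the log2 scale, Ccng1 0.71 higher and Zmat3 0.61 higher. On the high-calcium arrays these genes lay at 1.11 and 0.22 (Prr5l), 0.46 and 0.49 (Ccng1) and 0.60 and 0.24 (Zmat3) from the standard array. By the same rule 7 genes lay lower on the array of open diet (5.11%, against 5.92% of all genes above background). These were Ddit4l (-1.98), Ddit4 (-1.74), Castor1 (-1.10), Slc6a9 (-0.93), Slc1a4 (-0.71), Eif2ak4 (-0.63) and Pck2 (-0.59). Both shares were near those of all genes above background.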

How the results depend on the processing

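The count of members past limma's adjusted threshold was 0 as deposited and in each alternative fit. Over all genes, 61 were called higher and 35 lower with arrays centred on their medians and 6 lower with a trend and robust estimation, against 0 and 0 in the other fits. With arrays centred on their medians every member had the same SE of 1.06, so there the gap between a gene's own high-calcium arrays did not enter its test. The members' median difference of -0.0055 was 0.46 with the mean of all probe sets, 0.12 without _x, _s and _a probe sets and -0.32 with arrays centred on their medians, where the median of all genes shifted by -0.32 too. Leaving out each high-calcium array in turn gave -0.014 to 0.14. At least 1.5-fold higher on both arrays were 2 members with the mean of all probe sets. With every probe set by itself, 5 of the members' 24 probe sets were higher by that rule and 2 lower. Both settings let probe sets under background in, and shares over all probe sets were not computed. At a log2 difference of 0.32 in place of 0.58, 2 members were higher and 1 lower, where 7.55% and 4.05% of genes above background were.

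Signs turned for Mtor (0.022 with the array median added before log2 and 0.039 without replicate 1). With arrays centred on their medians they turned for Rptor (-0.048) and Atf4 (-0.063). They also turned for Sesn1 (0.075 with the mean of all probe sets and 0.26 without replicate 1). For Ddit3 they turned with the mean of all probe sets (1.75) and without replicate 1 (0.14). Mtor, Sesn1 and Ddit3 kept their sign without replicate 2 (-0.050, -0.56 and -0.35). Eif4ebp1 (0.16 to 0.48), Sesn2 (0.076 to 0.54), Trib3 (-0.70 to -0.19) and Asns (-0.48 to -0.14) kept their sign in the 11 alternative settings, 10 for Trib3, 1 of them, the mean of probe sets above background, chosen after seeing the data. Causes were not tested. No paired analysis was possible because the standard array carries no replicate number and no second array. With 1 standard array, signal and spread on that diet are known from 1 mouse.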
